A study of Mus musculus with 2 samples.

Results

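Cell-cell adhesion and gap junction genes of mouse mesoangioblasts were chosen by name: the cadherins Cdh2 and Cdh11, the immunoglobulin superfamily adhesion molecules Ncam1, Vcam1 and Alcam, the catenins Ctnnb1 and Ctnna1, and the connexin Gja1. All 8 were on the array, out of 8251 genes named on it, and they were represented by 14 probe sets, each a group of short oligonucleotides read out as a single intensity. Mesoangioblasts are progenitors from the wall of embryonic vessels, able to form several kinds of mesodermal cell. Clones D16 and D351 were both derived from dorsal aorta of C57BL6 mouse embryos of embryonic day 9.5. Tissue was cultured as an explant for 5 days, dissociated, and cloned by limiting dilution over mitomycin C-treated primary embryonic fibroblasts in RPMI with 20% fetal calf serum. Clones were then passed to gelatin-coated dishes and expanded. No treatment distinguished the clones. Each clone stands for a single cell line with 1 Affymetrix U74A array, so no difference could be tested, and a difference between arrays cannot be told apart from a difference between cultures of the same clone.

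Cadherins bind their own kind across the gap between neighbouring cells, and their tails hold beta-catenin, which recruits alpha-catenin and through it the actin cytoskeleton. Beta-catenin also acts in the nucleus as the transcriptional partner of TCF and LEF factors in Wnt signalling. Ncam1 and Alcam mediate calcium-independent adhesion, Vcam1 is bound by integrins that carry the alpha-4 chain, and connexin 43, the product of Gja1, forms channels that join the cytoplasm of adjacent cells. N-cadherin, cadherin-11 and connexin 43 are known from mesenchymal cells such as fibroblasts, osteoblasts and smooth muscle.

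The arrays were of like brightness, with median deposited intensities of 31.8 in D16 and 29.7 in D351, and they were scaled to equal medians of the brighter probe sets. Of the probe sets that are not controls, 60.6% in D16 and 59.4% in D351 were at or above the intensity floor of 17.4, below which values were not read as a level. The 3' to 5' ratio of Actb control probe sets, a sign of RNA integrity, was 1.81 for D16 and 1.37 for D351. For Gapdh the ratios were 1.56 and 1.44. Intensity depends on each probe set's sequence as well as on the RNA, so levels are compared between clones and not between genes.

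Of the 8 genes, 7 lay within 2-fold between the clones, and the eighth, Alcam, gave only a bound that did not reach 2-fold. With bounds counted in the same way, 19.4% of the 6101 genes that reached the floor in D16, D351 or both passed 2-fold: 10.6% were higher in D351 and 8.83% were higher in D16. This share was 20.2% among the 2963 genes with a mean level of 100 or more. The log2 ratios of D351 over D16 ran from -0.36 to 0.69 for the 7 genes that reached the floor in both clones, while Alcam was below it in D351. The median log2 ratio was 0.06, against -0.03 over all 6101 genes, and the median size of the ratio regardless of sign was 0.28 against 0.48. At the lower threshold of 1.5-fold, Ncam1 and Gja1 were higher in D351, and Alcam was higher in D16, which is 3 of 8 beside 42.1% of all genes (21.1% higher in D351, 21.0% higher in D16). Probe sets of the same gene give the only available error: their log2 ratios had a pooled SD of 0.52 over 808 genes, and 5 of the 8 ratios were smaller than it. This SD compares probe sets on the same arrays and holds no variation between cultures or repeat arrays of a clone. When hybridization controls set the scale instead, 1 of the 8 genes, Ncam1, passed 2-fold, and the share of 2-fold differences that favoured D351 was 82.9% over all genes, up from 54.5%. That scaling raised the median log2 ratio of all genes by 0.37, so signs under it are read relative to the new median. Relative to the median of all genes, Ncam1 was at 0.72 before and 0.74 after.

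**Figure D1:**
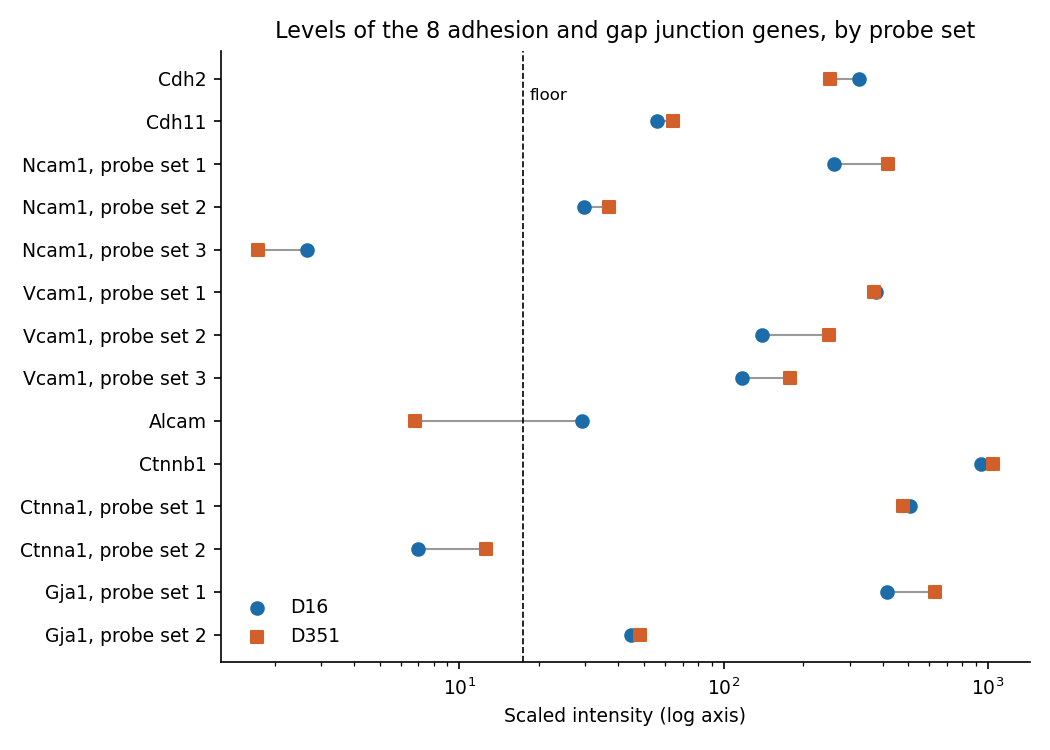
Scaled intensity (log axis) of each probe set of the 8 genes in D16 (circles) and D351 (squares), 1 array each, with the floor of 17.4 as a dashed line; probe sets of a gene are numbered from the brightest. The points of a probe set lie close together except for Alcam, whose D351 value is below the floor, and 2 probe sets, of Ncam1 and Ctnna1, lie below it in both clones.

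Cdh2, which encodes N-cadherin, measured 325 in D16 and 253 in D351. The level was thus 1.28-fold higher in D16, a log2 ratio of -0.36. With scaling on hybridization controls the ratio was 0.03, but relative to the median of all genes it was -0.33 before and -0.31 after. A ratio at least this far from 0 was found for 60.3% of all measured genes. Cdh11, the mesenchymal cadherin first known from osteoblasts, measured 56.1 in D16 and 64.2 in D351, a log2 ratio of 0.20. Each cadherin had a single probe set, so the reading has no second measurement on the array. Both genes were thus detected in both clones with levels that differed by less than the spread between probe sets of a gene.

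Ctnnb1, which encodes beta-catenin, measured 944 in D16 and 1044 in D351, a log2 ratio of 0.15 by its only probe set. The brighter probe set of Ctnna1, which encodes the actin-linking alpha-catenin, measured 506 in D16 and 476 in D351. Its log2 ratio was -0.09, and 0.30 with scaling on hybridization controls, where it was -0.04 relative to the median of all genes. The second probe set of Ctnna1, of a kind designed under relaxed rules (suffix r), was below the floor in both clones, at 6.98 and 12.6. Of all measured genes, 83.5% were at least as far apart as Ctnnb1 and 89.8% at least as far as Ctnna1. In the main setting the 3 core genes of the cadherin-catenin complex, Cdh2, Ctnnb1 and Ctnna1, were therefore each within 1.3-fold between the clones. Cdh2 was 1.33-fold apart on the values as deposited and 1.34-fold after quantile normalization. Ctnnb1 was 1.45-fold apart with scaling on hybridization controls, at a log2 ratio of 0.20 relative to the median of all genes.

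Ncam1, the neural cell adhesion molecule, which is also made by muscle precursors and other mesodermal cells, had the highest ratio of the 8. Its brightest probe set measured 261 in D16 and 420 in D351, a difference of 1.61-fold or 0.69 on the log2 scale. A second probe set, of a kind that can match other transcripts (suffix f), gave 29.6 and 36.7, a log2 ratio of 0.31. The third was below the floor in both clones, at 2.65 and 1.73. Both readable probe sets were thus higher in D351. Their mean log2 ratio was 0.50 ± 0.27 (SD, n = 2 probe sets of the same arrays). The sign was the same in all 9 alternatives of the processing, but all of them reused the same arrays. The lower and the higher floor tried, and leaving out suffixed probe sets, could not change the ratio of the brightest probe set. With only 2 arrays a pattern is a single ratio: 319 of 5195 other genes measured in both clones had a log2 ratio within 0.1 of that of Ncam1, the nearest being Zmynd8, Foxp1 and Pdia6, each at 0.69.

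Vcam1, a cell surface ligand for integrins that is induced by cytokines on endothelium and made constitutively by many stromal cells, had 3 readable probe sets that disagreed. The brightest measured 377 in D16 and 369 in D351, a log2 ratio of -0.03. The second measured 140 and 250, a log2 ratio of 0.83, and the third, which carries the suffix g and can overlap another probe set, measured 117 and 178, a log2 ratio of 0.61. The brightest probe set therefore showed almost equal levels, whereas the other 2, which the platform table lists under a single shared transcript record, were 1.78-fold and 1.52-fold higher in D351. The mean over the 3 was 0.47 ± 0.45 (SD, n = 3 probe sets). The sign of the Vcam1 ratio thus depended on the probe set. With scaling on hybridization controls the brightest probe set was at 0.36, or 0.02 relative to the median of all genes.

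Alcam, the activated leukocyte cell adhesion molecule, which is known from mesenchymal progenitors, was the only gene of the 8 below the floor in a clone. It measured 29.1 in D16 and 6.82 in D351 by its single probe set. Counted from the floor, D16 was at least 1.67-fold above D351, a log2 ratio of at most -0.74. The true difference may be larger than this bound, whose size followed from the floor: with the floor at the 25th percentile of all values, the bound was -2.0 and Alcam passed 2-fold, and with the floor at the 60th percentile it was below it in both clones. The D16 level was itself close to the floor.

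Gja1, which encodes connexin 43, measured 415 in D16 and 630 in D351 by its brighter probe set. D351 was thus 1.52-fold above D16, and the log2 ratio was 0.60. The other probe set gave 44.5 and 48.1, a log2 ratio of 0.11. Both values were higher in D351, but the probe sets carry the suffixes f and r, and Gja1 has none without a suffix. Their mean log2 ratio was 0.36 ± 0.35 (SD, n = 2 probe sets). The sign held in the 8 alternatives that gave a value, but these reused the same arrays. As for Ncam1, the lower and the higher floor tried could not change the ratio. Of all measured genes, 40.9% were at least as far apart as the brighter probe set.

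**Figure D2:**
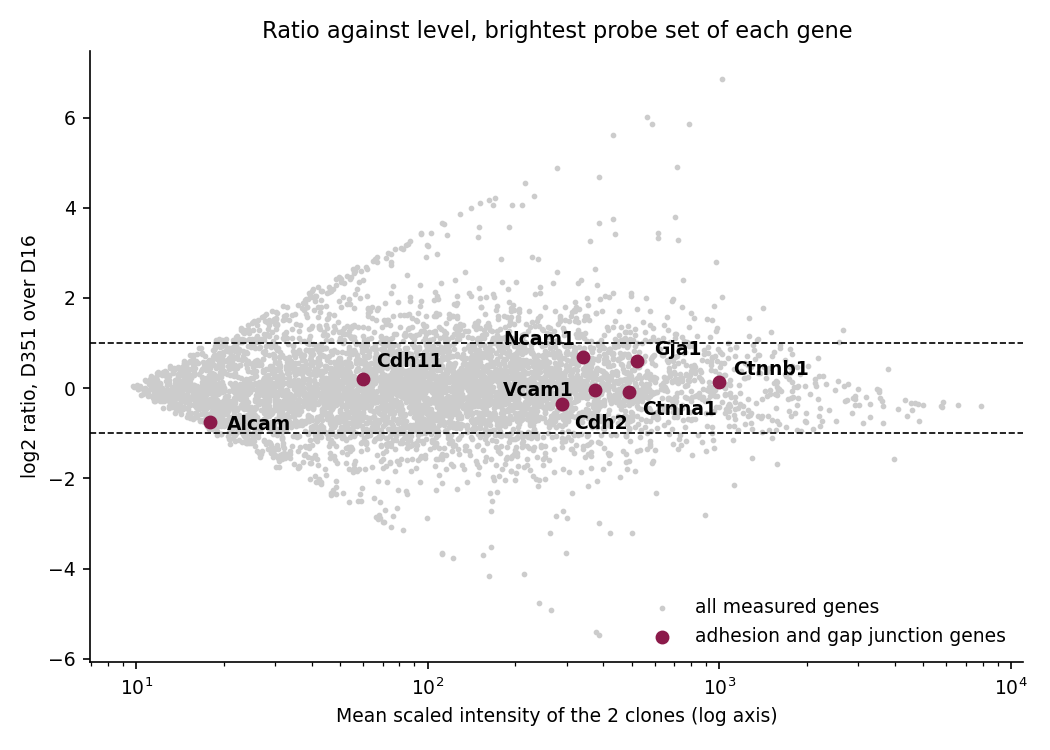
Log2 ratio of D351 over D16 against the mean scaled intensity (log axis) for the 6101 measured genes (grey) and the 8 adhesion and gap junction genes (dark points), with 2-fold marked by dashed lines. All 8 dark points lie between the dashed lines; Alcam lies on the lower edge, where values are bounds set by the floor.

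The other junction genes of the array were taken from lists of cadherins, plaque proteins, immunoglobulin superfamily molecules, binding partners, connexins, tight junctions and desmosomes. Of 88 such genes on the array, 44 were below the floor in both clones. Among the 44 measured, 7 were 2-fold or more higher in D351 and 6 were so in D16. Their median log2 ratio was -0.25. That is 29.5% past 2-fold, beside 19.4% of all genes and 0 of the 8 genes above, Alcam counted at its bound. No test of this difference was made. The balance of directions depended on the scaling, with 5 higher in D351 and 7 in D16 on the values as deposited, and 5 and 6 after quantile normalization. It was 6 and 6 after a correction that follows intensity (loess), and 8 and 6 with scaling on hybridization controls.

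Of the other cadherins, 4 of 11 were measured. Cdh13, the GPI-anchored T-cadherin, was 2.74-fold higher in D16, at 55.8 and 20.4. Cdh1, the epithelial cadherin, measured 72.5 and 59.03, while of the 7 other epithelial genes only Cldn4 was measured, at 27.1 in D16 and below the floor in D351. Epcam, Krt8, Krt18 and Krt19 were below the floor in both clones. Cdh5, the cadherin of endothelium, was below the floor in both clones, at 3.44 and 1.22. Among the protocadherins and atypical cadherins, Pcdh7 was 2.24-fold higher in D351, at 42.7 and 95.7. Celsr2, an atypical cadherin of planar polarity, measured 73.9 in D16 and 27.6 in D351, a 2.68-fold difference. The additional probe sets of Pcdh7 and Celsr2 were below the floor.

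In the plaque of the adherens junction, 11 of 13 genes were measured, with 2 higher in D351 and 1 higher in D16 by 2-fold or more. That is 27.3% of the 11, beside 19.4% of all genes. Ctnnd1, which encodes p120-catenin, the catenin that binds next to the membrane and keeps cadherins at the surface, was 2.20-fold higher in D351, at 466 and 1024. Its second probe set had a log2 ratio of 0.94. Lima1, an actin-binding protein that links to alpha-catenin, was 2.03-fold higher in D351, at 513 and 1040, but lay just under 2-fold on the values as deposited (a log2 ratio of 0.97) and after quantile normalization (0.94). Pkp4, a p120-related protein, measured 281 in D16 and 88.3 in D351, 3.18-fold higher in D16. Other catenins were higher in D16 by less than 2-fold: Ctnna2, the neural alpha-catenin, measured 54.9 and 27.8, a log2 ratio of -0.98 (-1.03 on the values as deposited), and Jup, plakoglobin, measured 68.4 and 39.8, a log2 ratio of -0.78. The catenins thus differed in both directions, with smaller ratios for Ctnnb1, Ctnna1 and Ctnnd2. Ctnnd2 had a log2 ratio of 0.22, at levels near the floor.

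Among the other immunoglobulin superfamily molecules, 10 of 22 were measured. The largest difference was in F11r, the junctional adhesion molecule A, which measured 190 in D351 but only 15.7, under the floor, in D16, so that it was at least 10.9-fold higher in D351. Jam3, of the same family, was 2.22-fold higher in D351, at 55.1 and 122. Cd47 was 2.06-fold higher in D351 by its brighter probe set (a log2 ratio of 0.39 by the other), but under 2-fold on the values as deposited (0.99) and after quantile normalization (0.97). Cd200 was at least 2.31-fold higher in D16. Of the binding partners, Itga4, the integrin chain that binds Vcam1, was below the floor in both clones by all 3 of its probe sets. Itgb1, the beta-1 chain, measured 1833 and 1854, and Itgb7, the other partner of the alpha-4 chain, was 3.12-fold higher in D16, at 113 and 36.1.

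No other measured connexin differed 2-fold, but with only 3 measured this count says little beside the 19.4% of all genes. Of 10 connexins on the array besides Gja1, 3 were measured, with Gja5, known from arterial endothelium, at 47.2 in D16 and 36.9 in D351 and Gjc1 at 31.0 and 23.7. Gja4, an endothelial connexin, was below the floor in both clones. Among 7 measured tight junction genes of 13, Cldn8 was at least 2.31-fold higher in D16. In the desmosome list 3 of 9 genes were measured, and the armadillo protein gene Pkp2 was 3.46-fold higher in D351. Its D16 level of 18.9 was near the floor, and a second probe set was at least 2.77-fold higher in D351.

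**Figure D3:**
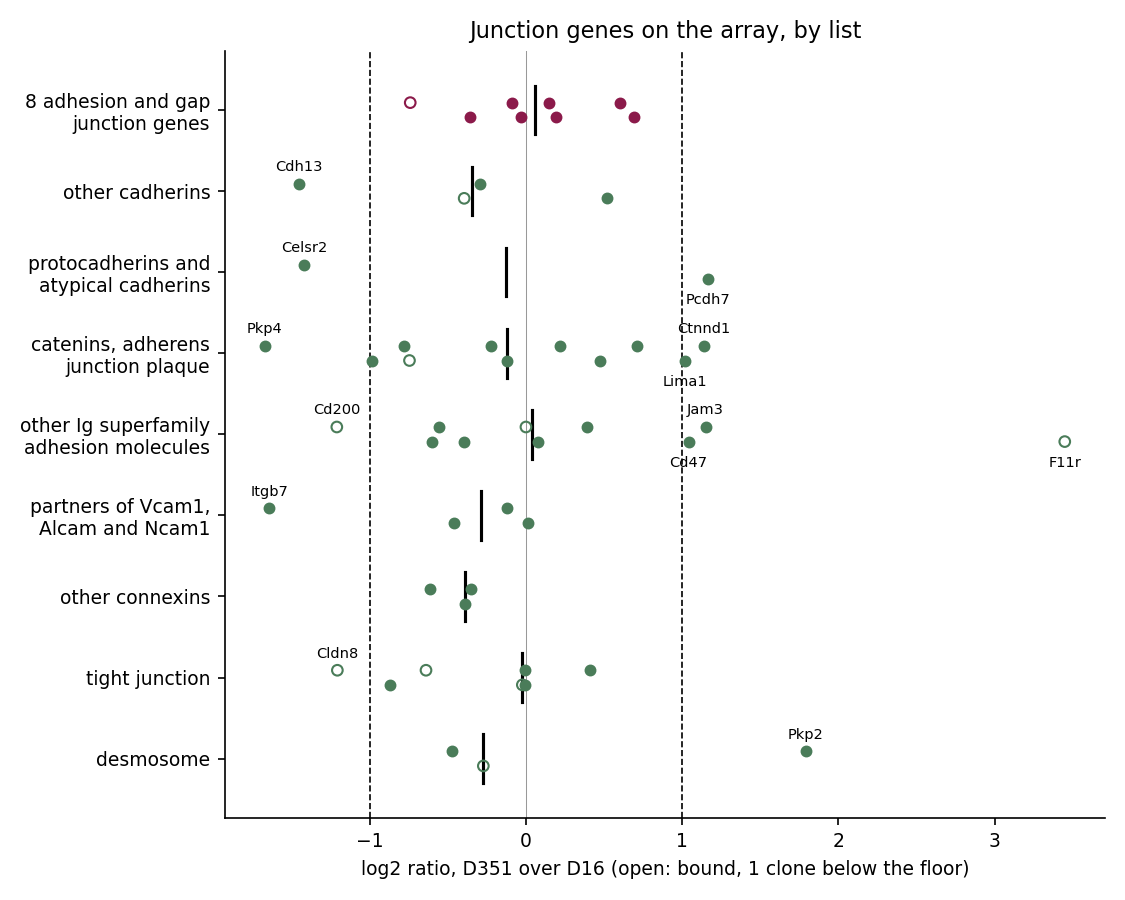
Log2 ratio of D351 over D16 for each measured gene of 9 groups (points; open where 1 clone was below the floor and the ratio is a bound), with group medians as black bars and 2-fold as dashed lines. Names mark genes at 2-fold or more: F11r lies farthest out, at a bound of 3.45, and the top row, the 8 genes, has none.

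Beta-catenin levels are set by protein turnover rather than by RNA alone, so the genes of its destruction complex and its nuclear partners were read beside Ctnnb1. Of 11 measured turnover genes, Dvl1, a Wnt signal transducer, was 2.28-fold higher in D351, at 93.9 and 214, and 0 were 2-fold higher in D16. Of 8 measured partners and targets, Myc was 2.16-fold higher in D16, at 160 and 74.1, and 0 were 2-fold higher in D351. The shares past 2-fold were 9.09% of turnover genes and 12.5% of partners and targets, beside 19.4% of all genes. By the counted, brighter probe sets the target gene Ccnd1 was 1.53-fold higher in D16 and the turnover gene Btrc 1.13-fold higher in D351. By second probe sets, which were not counted, these were 3.47-fold and 2.36-fold. The second Btrc probe set carries a suffix (s), and its D16 level of 24.7 was near the floor. Axin2, a direct target used to read Wnt activity, was below the floor in both clones, at 15.3 and 14.8. The median log2 ratios of these lists were 0.17 and -0.35, and neither sign held in all settings. The turnover median was -0.09 with the floor at the 60th percentile. That of partners and targets was 0.04 with scaling on hybridization controls.

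Markers of cell types that share these adhesion genes were read on the same arrays. Of the markers attributed to mesoangioblasts, Cd34 measured 475 in D16 and 6.72, below the floor, in D351, Kit and Kdr were below the floor in both clones, and Acta2 was measured in both. Of 10 fibroblast genes, read because the clones began on fibroblast feeders, 9 were measured, with summed levels of 8682 in D16 and 12494 in D351. Summed levels add all genes of a list on the array, also values below the floor, so bright probe sets weigh most. In this sum Col1a1 measured 1538 in D16 and 3771 in D351, and Col1a2 1693 and 3438. S100a4 at 1834 and 414, Thy1 at 1534 and 1041, and Pdgfra at 762 and 714 went the other way. Higher in D351 by 2-fold or more were 5 of the 9, beside 10.6% of all genes, among them the matrix genes Lum (4.02-fold), Postn (2.94-fold) and Col3a1 (2.54-fold), whereas S100a4 was 4.42-fold higher in D16. Of 9 smooth muscle and pericyte genes, 8 were measured and 6 were 2-fold or more higher in D351, again beside 10.6% of all genes, with summed levels of 1789 and 4595. They included the contractile genes Cnn1 (at least 9.04-fold), Mylk (5.07-fold) and Tagln (2.93-fold) and the pericyte receptor gene Pdgfrb (3.62-fold). Ncam1 and Gja1 were also higher in D351, but the fibroblast genes went in both directions. The part of those cell programmes in the values of Ncam1 and Gja1 was not tested.

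Markers of other cell types were mixed. Of 9 endothelial genes, 3 were measured: Eng at 128 in D16 and 123 in D351, Pecam1 at 30.8 and 20.3, and the receptor gene Flt1, at 16.2, under the floor, in D16 and 66.2 in D351, at least 3.80-fold higher. The endothelial genes Cdh5, Tek, Tie1 and Kdr were below the floor in both clones, and the summed levels of the list were 204 and 231. Of 8 blood genes, 4 were measured, with Cd14 at 70.1 and 129 and Cd68 at least 2.12-fold higher in D351, while the pan-leukocyte gene Ptprc was below the floor in both clones. Spi1 was higher in D16, at 26.6, and measured 11.2, below the floor, in D351. Csf1r measured 21.9 in D16 and 18.2 in D351 by its brighter probe set. The other Csf1r probe set went the opposite way, at 16.7, below the floor, and 21.2, and all of these values were near the floor. The summed levels of the blood list were 144 and 223. The epithelial list had summed levels of 135 and 96.4. Of 6 neural genes, 3 were measured, with summed levels of 806 and 607, and Nes, an intermediate filament gene of progenitors, was 3.51-fold higher in D351. The others were higher in D16: Tubb3 measured 723 and 466 by its brighter probe set, and Sox10 measured 35.8 and 27.3. The second Tubb3 probe set, below the floor in D16, was at least 2.81-fold higher in D351. Of 4 mesothelial genes, 2 were measured, and all 4 were below the floor in D351. Msln, which encodes mesothelin, measured 528 in D16 and 2.95 in D351, at least 30.3-fold higher in D16. The summed levels were 564, mostly Msln, and 28.1, made only of values below the floor. The part of these cell types in the values of the 8 genes was not tested.

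**Figure D4:**
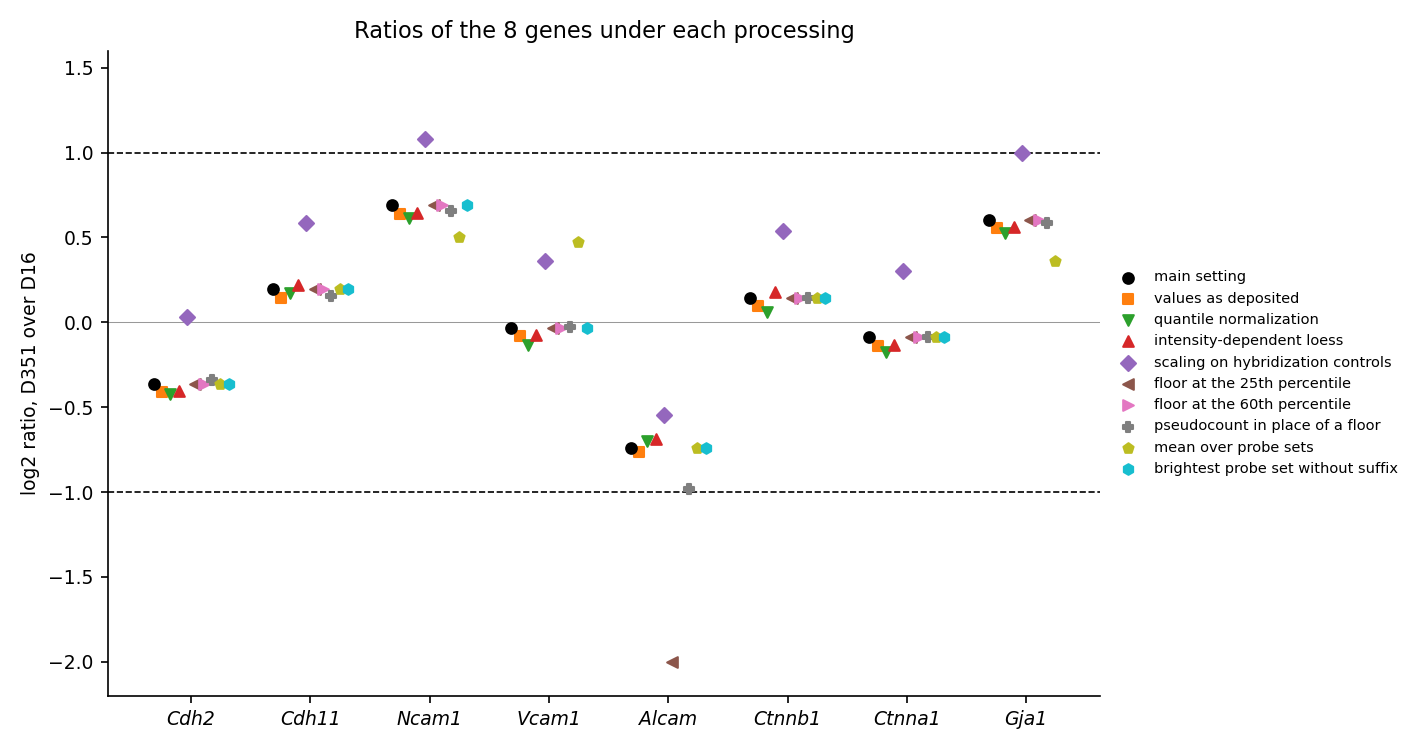
Log2 ratio of D351 over D16 for each of the 8 genes under the main setting (black circles) and up to 9 alternatives (coloured symbols), with 2-fold as dashed lines. Ncam1 passes 2-fold with scaling on hybridization controls (1.08) and Alcam with the floor at the 25th percentile (-2.0); Gja1 reaches 1.00 with the former, just under the line.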

How the data were processed

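The table deposited by the authors holds a linear intensity for each probe set and array. How the scans were summarised, scaled and corrected for background is not given in the sources used here. Detection calls were not used. Probe sets were named through the platform annotation and updated by Entrez number to RefSeq (GRCm38.p6). The annotation may be for a later version of the array than the label U74A names, which was not checked further, so the match of probe set to gene rests on it. Of 12422 non-control probe sets, 10833 had 1 symbol, 396 several and 1193 none; only the first kind was used. The arrays were multiplied by 0.983 (D16) and 1.02 (D351) to equal median log2 levels over probe sets above the floor in both. The floor was the 40th percentile of scaled values. Lower values were raised to the floor ahead of the log2 step, so ratios that involve them are bounds. Each gene was represented by its brightest probe set by mean level. Differences were counted at 2-fold. The number of arrays limits the precision.

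The members and lists were chosen with earlier results of these data known. All 8 members are described; from each other list up to 4 genes with the largest ratio past 2-fold are named, or up to 2 with the highest level, and further named genes were chosen after their values were seen. The functions were tested on simulated arrays. Alternatives changed the scaling, floor (25th and 60th percentile, or a pseudocount of 16), probe set rule and threshold. Calculations used Python 3.11.15, numpy 2.4.6, pandas 2.3.3 and statsmodels 0.14.6; figures used matplotlib 3.10.9.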

Additional observations from a re-analysis of the deposited data

How the results depend on the processing

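No paired analysis was possible because D16 and D351 were each hybridised once, which also left no replicate to drop. Of 70 member ratios under the alternatives, 69 stayed within the probe set SD of the reported value, the other being Alcam at -2.0 with the floor at the 25th percentile, a bound set by that floor. Much of this was fixed by the settings. Floors at the 25th and 60th percentile could not change a member measured in both clones. A changed probe set rule can move only genes with several or suffixed probe sets. Values as deposited and scaling on hybridization controls each shifted the ratios of members measured in both clones by a common amount smaller than that SD. Alcam gave no ratio with the floor at the 60th percentile, and Gja1 none without suffixed probe sets. The sign differed for Cdh2, Ctnna1 and Vcam1 with scaling on hybridization controls, which moved the median of all genes by 0.37; relative to that median Cdh2 and Ctnna1 stayed negative, at -0.31 and -0.04. Vcam1 also differed in sign as a mean over probe sets, at 0.47. The count of members higher in D351, 0 in the main setting, was 1 with scaling on hybridization controls and 2 at 1.5-fold; the count higher in D16, also 0, was 1 with the floor at the 25th percentile and 1 at 1.5-fold.

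For the other junction genes, the median of -0.25 became 0.13 with scaling on hybridization controls, -0.15 and -0.011 with floors at the 25th and 60th percentile, and -0.11 with a pseudocount. Of these genes, 7 were higher in D351 in the main setting, 5 on the values as deposited and after quantile normalization, 3 with a pseudocount and 2 at 3-fold. Higher in D16 were 6 in the main setting, 11 and 2 with floors at the 25th and 60th percentile, 13 at 1.5-fold and 2 at 3-fold. Of 107 list medians, 84 moved by less than the probe set SD over the square root of the list size. The causes were not tested, except that a higher floor or a stricter threshold leaves fewer genes to count. Levels near the floor of 17.4 limit what can be said of Alcam, Cdh13, Pkp2 and Gjc1.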

Other observations

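Transcription factors that repress epithelial cadherin were measured in both clones, with 0 of 4 at 2-fold. Beside the 19.4% of all genes, a count over 4 genes says little. Snai2 measured 582 in D16 and 761 in D351, and Zeb1 measured 245 and 387 by its brighter probe set, log2 ratios of 0.39 and 0.66. Twist1 had the largest ratio of the 4 and went the other way, at 259 and 150, a log2 ratio of -0.79, and Snai1 measured 131 and 159. The second Zeb1 probe set was near the floor in D16 and below it in D351. The list median was 0.34.

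Of 10 measured genes of the NF-kB pathway and of cytokine-induced adhesion, 3 were 2-fold or more higher in D351 and 0 in D16, a share of 30.0% beside 19.4% of all genes. Tnfrsf1a, a receptor for tumour necrosis factor, was 2.45-fold higher in D351, at 240 and 589, but its second probe set had a log2 ratio of -0.74. Tnfrsf1b, the other receptor, was 2.41-fold higher, at 29.8 and 71.7. Nfkbia, an inhibitor that NF-kB induces, was 2.15-fold higher, at 112 and 242, with 0.55 on the log2 scale by another probe set. The endothelial selectin genes Sele and Selp and the adhesion gene Icam1, which cytokines induce together with Vcam1 in endothelium, were below the floor in both clones.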
